A study of Mus musculus with 2 samples.

Results

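A pair of prostasphere cultures in which Sox9 was not deleted was compared across 2 arrays, and 2 of the 4 RNAs of the series, those labeled with Cy5, were used for it. One was RNA of wild-type cells treated with tamoxifen (TAM), and the other RNA of ER-Sox9flox/flox cells treated with vehicle. Of 41174 mouse probes, 23590 were well above background in Cy5 on at least 1 of the 2 arrays, and they read 13653 of the 19822 genes that could be matched on the array. Each Cy5 RNA was hybridized once, so no test, standard error or p-value is possible, and a difference of at least 2-fold (1 on the log2 scale) is a rule of size only. The Cy3 RNAs of the same arrays, both of TAM-treated ER-Sox9flox/flox cells, served as the reference for the spread between arrays.

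Prostaspheres are balls of prostate epithelial cells that grow from single cells in Matrigel. All 4 RNAs came from spheres of urogenital sinus epithelium taken at 16 days post conception, with a labeled C57/Bl6J background, grown for 6 days in Matrigel with dihydrotestosterone and then treated for 6 days. The wild-type culture received 5 µM TAM and the ER-Sox9flox/flox vehicle culture none. ER-Sox9flox/flox cells are homozygous for the floxed Sox9 allele and for ERCre, a Cre recombinase that TAM activates. The growth notes list C57/Bl6J beside the ERCre lines, and the genotype entry of the wild-type RNA speaks of Sox9 alone, so whether those cells carry ERCre is not stated. The labels give the vehicle culture the same genotype entry, Sox9 null, as the TAM-treated floxed cultures, so its treatment label is what sets it apart. They do not say how many embryos or cultures were pooled, and the methods describe the sphere assay with adult tissue. Mouse line, TAM and culture all differ between the Cy5 RNAs, and their parts in any difference cannot be told apart.

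The urogenital sinus is the embryonic rudiment of the prostate, in which epithelium lies against a mesenchyme that forms fibroblasts and smooth muscle, next to the striated muscle of the urethra. Epithelium is isolated from this rudiment by digestion, and basal epithelial cells are marked by Krt5, Krt14 and Trp63 (p63), luminal cells by Krt8 and Krt18. Sox9 is a transcription factor of prostate buds, and the study reports it in basal and luminal cells of the adult mouse prostate.

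The labels were checked on Sox9 (chromosome 11, mm9), which 3 probes measure. On the brightest probe (112647008 to 112647067), the log2 brightness was 10.67 in wild type TAM and 10.23 in ER-Sox9flox/flox vehicle, and 7.98 and 7.86 in the Cy3 RNAs of the first and second array. Both Cy5 RNAs were thus bright and both Cy3 RNAs dim, and the Cy5 RNAs differed by 0.45 (1.36-fold). The probe at 112644310 to 112645162 read 8.21 in wild type TAM and 7.93 in vehicle, against 7.04 and 6.66 in Cy3, and gave the same order. The probe at 112648809 to 112648868, spotted 10 times, read 6.73 in wild type TAM, where it was not well above background, 6.59 in vehicle, and 7.72 and 7.81 in Cy3, which is the opposite order between the dyes. Over the Sox9 probes the Cy5 difference lay between 0.14 and 0.45, under 2-fold on each.

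The Rosa26 locus is described next, since the methods list Rosa26ERCre mice, in which Cre is inserted in this widely expressed gene. It was named because of its value here, among the largest bounds toward wild type. It is thus no independent check of the labels. The 1 probe for its transcript, Gt(ROSA)26Sor (chromosome 6, 113021054 to 113021113, mm9), read 7.93 in wild type TAM and 6.51 in ER-Sox9flox/flox vehicle, and 6.79 and 6.55 in the Cy3 RNAs. It was well above background in the wild-type RNA and not in any of the 3 RNAs of floxed cells, which made wild type at least 2.68-fold higher than vehicle. The value rests on 1 spot an array. The first 30 of the 60 bases of this probe, shown because no other gene among those named was above background in the wild-type RNA alone, and those of the brightest Sox9 probe were as follows.
Gt(ROSA)26Sor probe: gtgaggataaaggtgtttgtcataaaatgt
Sox9 probe: ttccaggagagagactttaagactttgtct

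Epithelial markers were bright in both Cy5 RNAs. Krt5 read 16.67 in wild type TAM and 16.46 in vehicle, Krt14 17.03 and 16.74, and Trp63 10.31 and 10.19, while the luminal keratins Krt8 read 16.37 and 16.00 and Krt18 15.81 and 15.41. The epithelial label was thus met by its markers in both cultures. The Y-linked genes Ddx3y, Eif2s3y and Kdm5d were read in both at levels that differed by at most 0.18, and Xist, the transcript of the inactive X, was not well above background in either.

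Most genes were alike. Of the 13653 genes, 12793 (93.7%) differed by less than 1.5-fold between the Cy5 RNAs, and their levels had a correlation of 0.985 across genes, which are not independent replicates. The difference, given throughout as wild type TAM minus ER-Sox9flox/flox vehicle on the log2 scale, had a standard deviation over genes of 0.347, against 0.113 for the Cy3 difference between arrays, a ratio of 3.07. The median SD between repeated spots of a probe was 0.0738 for the Cy5 difference and 0.0714 for the Cy3 difference (157 probes), which is a technical spread and leaves out that between cultures. The Cy5 and Cy3 differences of a gene had a correlation of 0.08 across genes.

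The differences were lopsided. At least 2-fold, 275 genes (2.01% of those read) were higher in ER-Sox9flox/flox vehicle and 19 (0.139%) in wild type TAM. These counts moved with the scaling, to 1872 and 9 with each channel centred on its median, where the median of all genes was -0.62, to 252 and 101 with centring on the genes read, and to 993 and 194 when the processed signals were used. In Cy3, 2 genes (0.0146%) were higher on the first array and 1 (0.00732%) on the second. Of the 275 genes, 268 differed by less than 1.5-fold in Cy3, and of the 19 genes, 15 did. The lower percentiles carried the excess: the 1st percentile of the Cy5 difference was -1.35 and the 99th 0.57, against -0.25 and 0.30 in Cy3. The rule has a sharp edge, with Bgn and Prelp just inside it and Cavin4 and Col10a1 just outside it, all 4 at -1.0, and on the other side Rmrp (1.01) and AB010352 (1.03) inside and Nudt17 and Cxcl16 (0.99 each) outside.

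**Figure D1:**
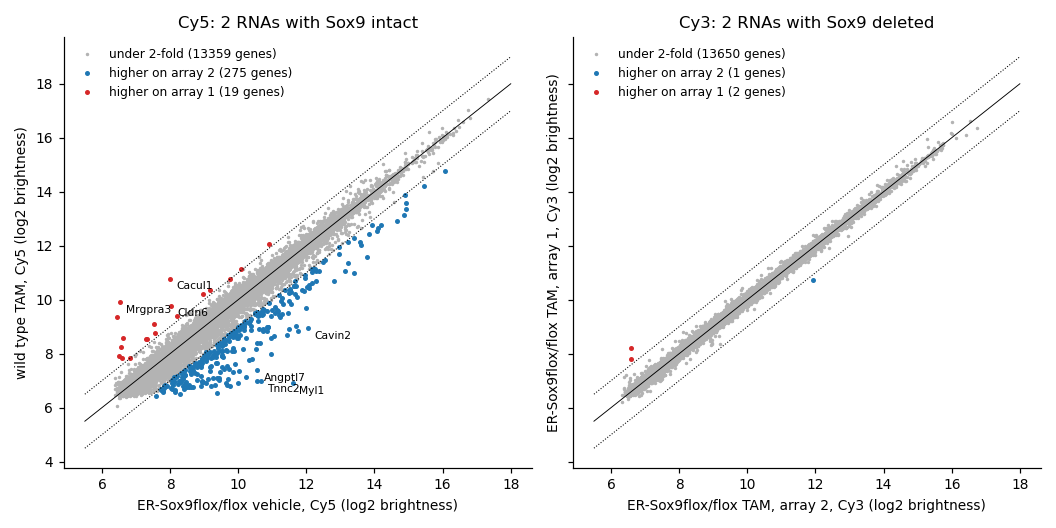
Log2 brightness of 13653 genes, each a point, in wild type TAM against ER-Sox9flox/flox vehicle (left, Cy5) and in the ER-Sox9flox/flox TAM RNA of the first array against that of the second (right, Cy3), with the line of equality solid and 2-fold dotted. In Cy5, 275 genes lie beyond 2-fold toward vehicle and 19 toward wild type, and in Cy3 only 3 lie beyond it.

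The differing genes were spread over brightness and the genome. In 4 groups of equal size, from the dimmest to the brightest genes, 15, 110, 90 and 60 were at least 2-fold higher in vehicle, and 4, 8, 5 and 2 in wild type TAM. The background correction adds a constant of 50 to every brightness, which understates the differences of dim probes. By chromosome, the share of genes higher in vehicle ran from 0.894% (6 of 671 on chromosome 17) to 3.61% (25 of 692 on chromosome 3) over the autosomes and was 1.66% on X. A further 119 probes measured 99 of these 294 genes, and 110 of them pointed the same way as the brightest probe, 49 of them at least 2-fold.

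Skeletal muscle genes gave the largest differences, all toward ER-Sox9flox/flox vehicle. Myl1, a fast-muscle myosin light chain (chromosome 1), read 6.91 in wild type TAM, where it was not well above background, 11.60 in vehicle, and 9.93 and 9.34 in Cy3, so vehicle was at least 25.8-fold higher. Tnnc2, the calcium-binding troponin of fast muscle (chromosome 2), read 6.99 in wild type TAM, 10.66 in vehicle, and 8.82 and 8.12 in Cy3, a difference of -3.67 (12.8-fold). In both, the Cy5 RNAs were the lowest and the highest of the 4 RNAs and the Cy3 RNAs lay between, though Cy5 and Cy3 values of a probe also differ by dye. Myh8, the perinatal myosin heavy chain, read 6.99 and 10.56, at least 11.9-fold higher in vehicle. Chrna1, the alpha subunit of the muscle acetylcholine receptor, read 6.90 and 10.00 and was at least 8.55-fold higher. Neither Myh8 nor Chrna1 was well above background in wild type TAM. Myh1 (6.79 and 9.77) and the embryonic myosin Myh3 (6.53 and 9.38) were at least 7.88-fold and 7.22-fold higher in vehicle by the same reasoning. Each of these bounds belongs to the brightest probe and not to the gene. A second passing probe gave smaller differences: -2.11 for Myl1, -0.40 for Myh8, -0.92 for Chrna1, -0.91 for Myh1 and -2.32 for Myh3.

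Of 17 skeletal muscle genes listed, 16 were read, 12 of them at least 2-fold higher in vehicle and 0 in wild type TAM, with a median difference of -1.90 (all genes 0.00) and a median Cy3 difference of 0.20. Of the 12, 7 were not well above background in wild type TAM, so they entered through the vehicle RNA alone. Without the filter on dim probes the median was -1.78 over 17 genes. The list spans the contractile proteins Acta1 (8.71 and 11.44, 6.65-fold), Mylpf (7.33 and 9.85) and Tnnt1 (6.94 and 8.96), and the regulator Myog, a transcription factor of muscle differentiation (6.77 and 8.56). Of the earlier regulators, Myod1 read 6.55 and 6.98, and Myf5 was not well above background in either RNA. Summed over the list, the linear brightness was 3000 in wild type TAM and 14718 in vehicle, against 5730 and 4561 in the Cy3 RNAs. In RNA of a whole culture, fewer cells of a type and less RNA per cell cannot be told apart.

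Stretches before the start sites of these genes were read from RefSeq (GRCm38.p6), since each of the 16 read was below 0. The sizes differed widely, from -4.69 for Myl1 to -0.27 for Ckm. The muscle regulators of the MyoD family bind E-boxes, and the E-box CAGCTG, which reads alike on both strands, was present in the 250 bases before the start of 6 of 14 listed muscle promoters (42.9%) and of 4271 of all 32851 promoters (13%). The 14 promoters are those of 14 of the 17 listed genes, and Ckm was 1 of the 6 with a match. A match is a description of letters and not a site. Myl1 (chr1:66945057-66945306 on the minus strand) and Chrna1 (chr2:73580339-73580588 on the minus strand) are shown 5′ to 3′ with the E-box in capitals, as the muscle genes with a match that had the largest differences.
Myl1: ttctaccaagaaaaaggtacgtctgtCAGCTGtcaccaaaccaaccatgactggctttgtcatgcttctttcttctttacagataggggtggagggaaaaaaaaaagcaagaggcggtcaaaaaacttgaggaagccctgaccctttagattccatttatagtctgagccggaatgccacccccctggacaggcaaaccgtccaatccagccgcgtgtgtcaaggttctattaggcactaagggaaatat
Chrna1: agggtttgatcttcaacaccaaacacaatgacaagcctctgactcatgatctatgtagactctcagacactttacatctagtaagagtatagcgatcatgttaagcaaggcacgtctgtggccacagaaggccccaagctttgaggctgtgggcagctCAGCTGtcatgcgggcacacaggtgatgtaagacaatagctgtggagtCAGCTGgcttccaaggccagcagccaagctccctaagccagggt

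**Figure D2:**
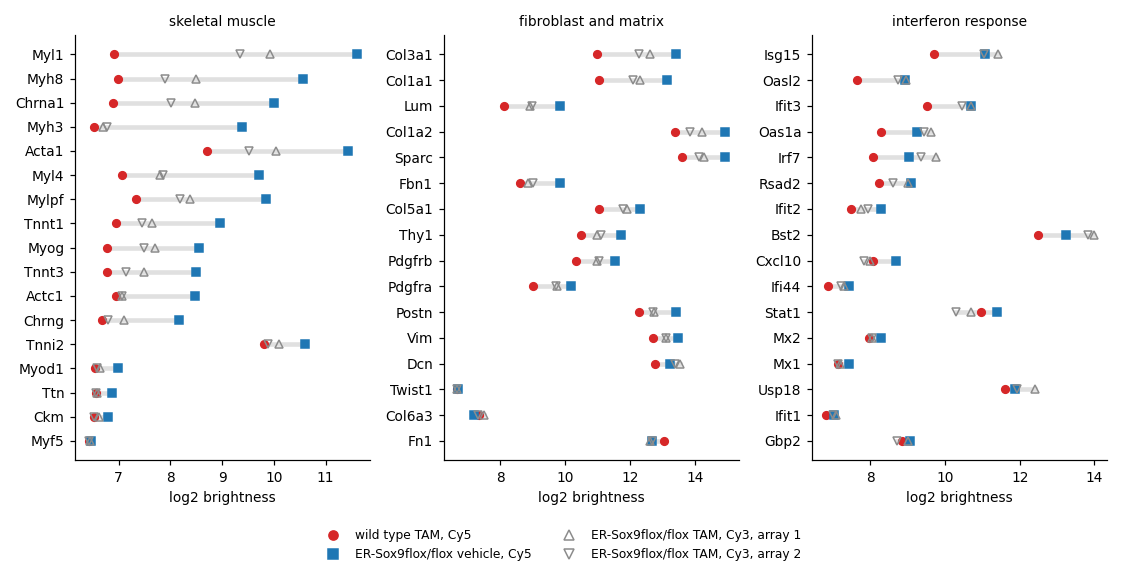
Log2 brightness (horizontal axis) of the members of 3 gene lists in wild type TAM (circles), ER-Sox9flox/flox vehicle (squares) and the Cy3 RNAs of both arrays (open triangles), genes ordered by the Cy5 difference. In the skeletal muscle panel wild type is lowest or near it and vehicle highest, by at least 25.8-fold for the brightest Myl1 probe. In the interferon panel each of the 16 members is higher in vehicle than in wild type.

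Matrix and stromal genes differed in the same direction. Col3a1, a fibrillar collagen of connective tissue, read 11 in wild type TAM and 13.41 in vehicle (-2.40, 5.28-fold), and 12.63 and 12.28 in Cy3. Col1a1 read 11.05 and 13.13 (-2.08, 4.23-fold), and the proteoglycan lumican, Lum, 8.12 and 9.83 (-1.71, 3.27-fold). All of these were well above background in both Cy5 RNAs. Of 16 fibroblast and matrix genes, all read, 11 were at least 2-fold higher in vehicle and 0 in wild type TAM (median -1.20, Cy3 median 0.03). Pdgfra and Pdgfrb, receptors of mesenchymal cells, were among the 11 at -1.15 and -1.18, and Thy1 was at -1.21. Vim was at -0.79, and fibronectin, Fn1, was one of 2 members above 0, at 0.37. Col11a1 (8.85 and 11.77, 7.57-fold) and Col8a1 (10.70 and 12.81, 4.33-fold), which are not in the list, were also higher in vehicle.

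Among 7 smooth muscle genes, 4 were at least 2-fold higher in vehicle, and each of the 7 was below 0 (median -1.15, Cy3 median -0.04). Acta2, smooth muscle actin, read 12.42 in wild type TAM, 13.83 in vehicle, and 12.82 and 12.99 in Cy3 (-1.42, 2.67-fold). That is the brightest of its 4 passing probes, which disagreed in size. A probe nearly as bright (12.34 and 12.73) gave -0.39, and the others gave -1.36 and -0.36. Mylk, the kinase of the myosin light chain, was at -1.25, Cnn1 at -1.17 and Tagln at -1.15. Among genes well above background in both Cy5 RNAs, of which 2.0% (254 of 12716) were at least 2-fold higher in vehicle, the counts were 5 of 6 for skeletal muscle, 11 of 15 for fibroblast and matrix and 4 of 7 for smooth muscle.

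Markers of other cell types were also counted. Of 11 immune cell markers 8 were read, and the only one at least 2-fold different was Lyz2, lysozyme (10.50 and 11.64, -1.13). The Cy3 difference of Lyz2 was -0.38, the same direction, and its second probe gave -0.14 in Cy5. Ptprc, Itgam and Adgre1 were not well above background in either RNA. Of 6 endothelial markers 4 were read, with Emcn at -1.11 (Cy3 difference -0.40), Cdh5 and Kdr near 0, and Pecam1 and Tek not well above background. Of 6 neuronal and glial markers 3 were read and 0 were 2-fold different. The medians of the immune, endothelial and neuronal lists were -0.22, -0.06 and -0.13.

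Basal epithelial genes leaned the other way, toward wild type TAM, though 0 of the 13 reached 2-fold. The values ran from 0.00 for Krt15 to 0.88 for Itgb4 (median 0.44, Cy3 median 0.03). Itgb4, the hemidesmosome integrin, read 14.05 and 13.16, and the laminin chains Lama3 (11.49 and 10.68) and Lamb3 (12.63 and 12.12) were higher by 0.80 and 0.52. With each channel centred on its median, which moved the median of all genes to -0.62, that of the basal list was -0.36, above the shift but below 0. Of 18 suprabasal and cornified genes read, 1 was 2-fold different, involucrin, Ivl (9.86 and 11.31, -1.46). Of 13 luminal genes read, 1 was, the prostate stem cell antigen Psca (7.24 and 8.80, -1.56). The medians of these lists were -0.24 and 0.06, and of 6 urothelium and duct genes read, with a median of -0.38, 0 reached 2-fold.

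**Figure D3:**
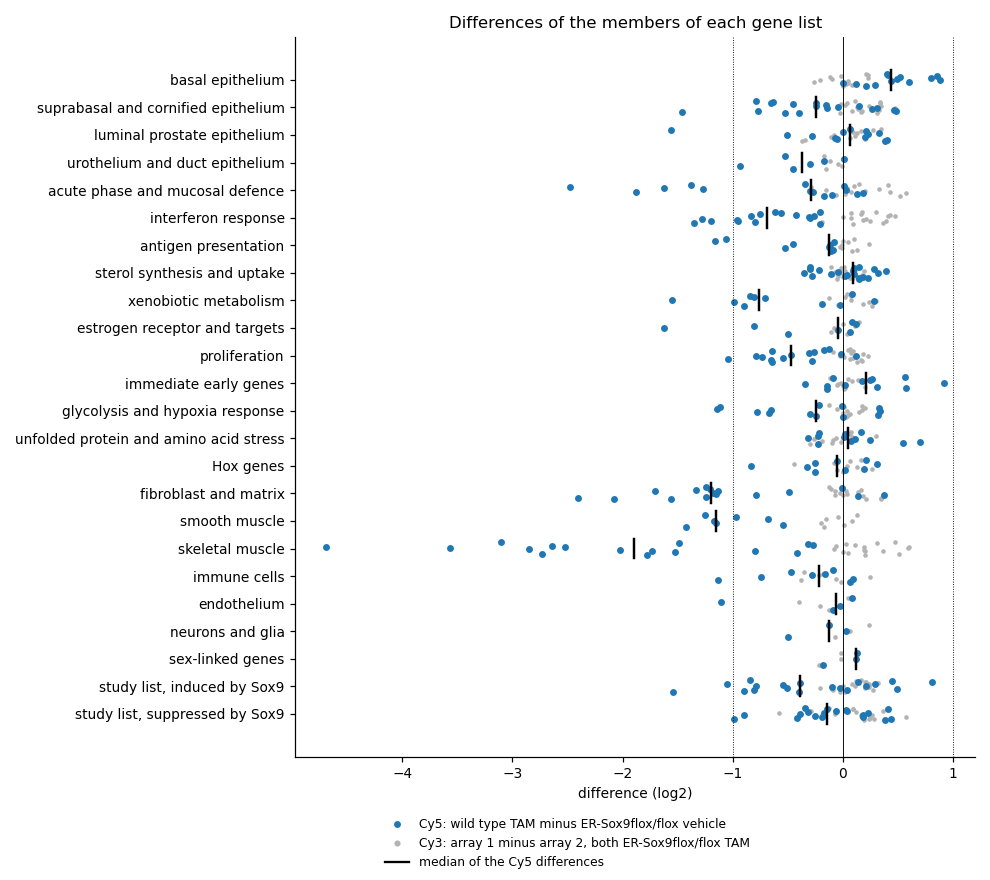
Difference on the log2 scale of each gene read in 24 lists, in Cy5 (wild type TAM minus ER-Sox9flox/flox vehicle, filled) and in Cy3 (first minus second array, small), with the Cy5 median of each list as a bar and 2-fold dotted. The skeletal muscle, fibroblast and matrix and smooth muscle medians lie at -1.90, -1.20 and -1.15, the basal epithelium median at 0.44, and 0 of the listed genes reach 2-fold toward wild type.

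Of 16 interferon-stimulated genes read, 3 were at least 2-fold higher in vehicle, against 2.01% of all genes. Isg15, a ubiquitin-like protein, read 9.72 in wild type TAM, 11.07 in vehicle, and 11.41 and 11.05 in the Cy3 RNAs (-1.35, 2.55-fold). Oasl2 read 7.64 and 8.93 (-1.28) and Ifit3 9.51 and 10.71 (-1.20). For Isg15 the wild-type RNA was the lowest of the 4 and the 3 RNAs of floxed cells lay within 0.36 of each other. The other members lay short of 2-fold, each of the 16 was below 0, and the median was -0.69 (Cy3 median 0.19). The immunoproteasome subunits Psmb8 (-1.16) and Psmb9 (-1.06), of the antigen presentation list, were also at least 2-fold higher in vehicle, out of 9 genes read (median -0.13).

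The interferon-stimulated response element is bound by the STAT and IRF factors that interferon activates. Its core, which reads GAAA, 2 bases of any kind and GAAA again, searched on both strands, was present in the 250 bases before the start of 8 of 13 promoters of listed interferon genes (61.5%) and 978 of all 32851 (2.98%). The 13 promoters are those of 12 of the 16 listed genes. Both lists hold genes picked as typical of muscle or of the interferon response. The shares with a match thus describe the lists and not these cultures. At their ends, this core and the E-box can overlap in 1 letter. Isg15 (chr4:156200819-156201068 on the minus strand) and Ifit3 (chr19:34583279-34583528 on the plus strand) are shown with the core in capitals, as members past 2-fold.
Isg15: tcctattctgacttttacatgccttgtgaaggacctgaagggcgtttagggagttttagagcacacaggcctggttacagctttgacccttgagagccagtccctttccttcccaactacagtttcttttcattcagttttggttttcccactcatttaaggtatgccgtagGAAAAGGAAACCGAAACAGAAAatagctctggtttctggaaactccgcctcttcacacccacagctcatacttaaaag
Ifit3: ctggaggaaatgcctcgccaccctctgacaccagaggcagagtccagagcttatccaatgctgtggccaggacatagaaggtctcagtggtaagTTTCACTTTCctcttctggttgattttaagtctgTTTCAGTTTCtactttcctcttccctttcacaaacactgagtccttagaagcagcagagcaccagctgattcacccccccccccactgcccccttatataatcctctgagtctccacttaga

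Among 14 acute phase and mucosal defence genes, 5 were at least 2-fold higher in vehicle, against 2.01% of all genes, with a median of -0.29. Haptoglobin, Hp, read 6.84 in wild type TAM, 9.32 in vehicle, and 7.26 and 7.55 in Cy3 (-2.48, 5.59-fold). Its wild-type value, on 1 spot, was well above background but dim, below that of Myl1 (6.91), which was not. Lactoferrin, Ltf, read 8.99 and 10.88 (-1.88), the lipopolysaccharide-binding protein Lbp 7.91 and 9.53 (-1.62), the neutrophil chemokine Cxcl5 9.22 and 10.59 (-1.38) and S100a9 7.52 and 8.78 (-1.27). Others of the list lay near 0, such as Slpi at 0.18 and Saa3 at -0.17, so the list did not move as one.

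Of 15 proliferation genes read, 1, the cyclin Ccna2, reached 2-fold (8.37 and 9.41, -1.04), against 2.01% of all genes higher in vehicle. The other members lay short of it, and 14 of the 15 were below 0, with a median of -0.47 against a Cy3 median of 0.07. Mki67 read 8.81 and 9.45 and Birc5 9.95 and 10.74. Of 13 glycolysis and hypoxia genes, Adm (-1.14) and Egln3 (-1.12) were at least 2-fold higher in vehicle, and the median was -0.24.

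In the lists given next, chosen mostly for the drug and for stress, at most 1 member each reached 2-fold. Over all genes read, 2.01% were at least 2-fold higher in vehicle. In lists this short, 1 member is already a larger share than that of all genes. TAM is a ligand of the estrogen receptor and is metabolised by cytochromes P450. Of 10 estrogen receptor and target genes 7 were read, of which Cxcl12 reached 2-fold (8.60 and 10.22, -1.62), with a list median of -0.04. Of 10 xenobiotic metabolism genes read, Cyp2f2 did (12.04 and 13.59, -1.55). The median of that list was -0.76, 8 of the 10 were below 0, and Cyp2b13 (-0.99), Cyp2b10 (-0.90), the glutathione transferases Gstm1 (-0.84) and Gsta4 (-0.81), and Nqo1 (-0.71) lay short of 2-fold. The medians of the sterol synthesis (0.09 over 20 genes), unfolded protein (0.04 over 12), immediate early (0.21 over 12) and Hox (-0.05 over 9) lists were small, and 0 of their members reached 2-fold.

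The genes that the study lists as induced or suppressed by Sox9 were chosen on these arrays, and both Cy5 RNAs have Sox9. Over all genes read, 2.01% were at least 2-fold higher in vehicle and 0.139% in wild type TAM. Of the 19 induced genes read, 2 differed at least 2-fold between the Cy5 RNAs, both higher in vehicle. They were S100g (10.61 and 12.15, -1.54) and Bbox1 (7.38 and 8.43, -1.05), and of the 19 suppressed genes read 0 did. The medians were -0.39 and -0.14. S100g, a vitamin D-dependent calcium-binding protein, read 8.08 and 8.06 in the Cy3 RNAs, so its level in Cy5 differed more between the cultures than it did between the Cy3 RNAs, by 1.54 against 0.02. Vdr, the vitamin D receptor, was higher in wild type TAM by 0.81.

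Beyond the lists, the genes most in favour of vehicle among those well above background in both Cy5 RNAs were, after Tnnc2, Angptl7, a secreted angiopoietin-like protein, and Cavin2, a coat protein of caveolae. Angptl7 (chromosome 4) read 7.38 in wild type TAM and 10.57 in vehicle (-3.19, 9.10-fold), and 7.38 and 7.20 in Cy3. Cavin2 (chromosome 1) read 8.94 and 12.06 (-3.13, 8.73-fold), and 8.82 and 9.07 in Cy3. In both the vehicle RNA alone was high, and the wild-type RNA lay among the Cy3 RNAs. Lgals7, a galectin of stratified epithelium, read 7.15 and 10.23 (-3.08, 8.46-fold), and 8.08 and 8.07 in Cy3. Mgll, monoglyceride lipase, read 8.01 and 10.96 (-2.96, 7.76-fold), and 10.23 and 10.38 in Cy3, so here the wild-type RNA alone was low. The lymphatic growth factor Vegfd (-2.71, 6.54-fold), the sarcomere protein Myom2 (-2.83) and the platelet chemokine Ppbp (-2.68) completed the 10 with Col11a1 and Acta1. Tnnc2 (6.99), Vegfd (6.93) and Myom2 (6.85) were dim in wild type TAM, each on 1 spot an array. After subtraction of the Cy3 difference, among genes well above background in all 4 RNAs, Tnnc2 (-4.37), Angptl7 (-3.36), Acta1 (-3.25), Lgals7 (-3.10) and the muscle calcium pump Atp2a1 (-3.07) were the lowest.

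Across the 275 genes higher in vehicle, both Cy3 RNAs lay between the Cy5 RNAs for 211 (76.7%), above both for 15 and below both for 18. Over all 6905 genes below 0 the share between was 25.5%, and a larger Cy5 gap leaves more room for values between, so the shares are a description.

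**Figure D4:**
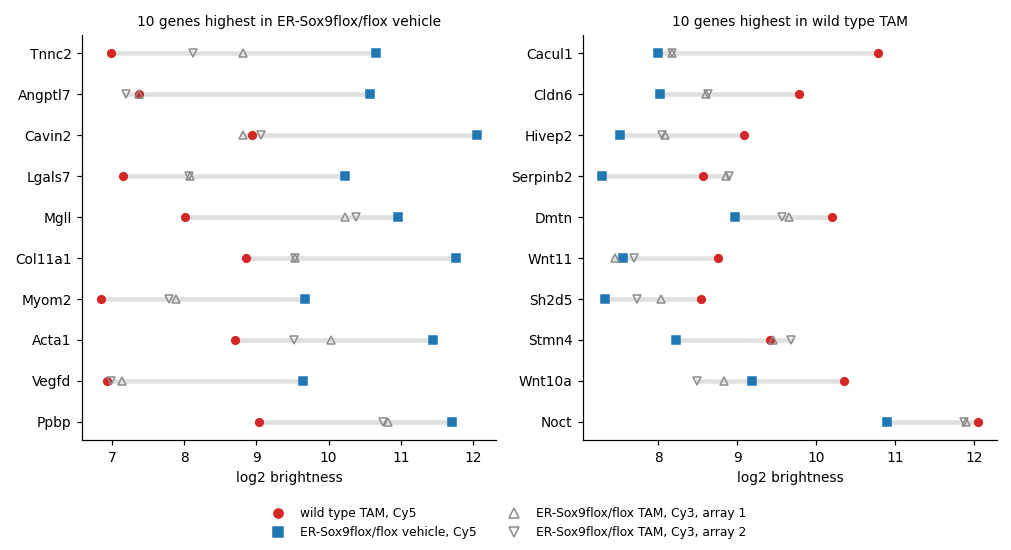
Log2 brightness (horizontal axis) in the 4 RNAs of the 10 genes most in favour of ER-Sox9flox/flox vehicle (left) and of wild type TAM (right) among those well above background in both Cy5 RNAs. On the left the squares of the vehicle RNA are the highest of the 4 RNAs, from 6.40-fold above wild type for Ppbp to 12.8-fold for Tnnc2. For Mgll the Cy3 RNAs (10.23 and 10.38) lie close below vehicle (10.96). On the right the circles of wild type TAM lie 1.16 to 2.78 above vehicle.

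The 10 genes highest in wild type TAM, among those well above background in both Cy5 RNAs, are given next. Cldn6, a tight junction protein of embryonic epithelium (chromosome 17), read 9.78 in wild type TAM and 8.02 in vehicle (1.75, 3.37-fold), and 8.60 and 8.63 in Cy3. Hivep2, a zinc finger factor (chromosome 10), read 9.09 and 7.52 (1.56, 2.96-fold). Serpinb2, an inhibitor of plasminogen activators, read 8.56 and 7.29 (1.26, 2.40-fold), and 8.86 and 8.89 in Cy3, so here the vehicle RNA alone was low. This group held 2 Wnt ligands, Wnt11 (8.76 and 7.55, 2.32-fold) and Wnt10a (10.35 and 9.18, 2.25-fold). Noct, a clock-regulated phosphatase, read 12.05 and 10.90, and 11.90 and 11.87 in Cy3. The actin-bundling protein Dmtn (1.22), Sh2d5 (1.21) and Stmn4, of the stathmin family (1.19), completed these 10 with Cacul1.

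Cacul1 (chromosome 19, mm9) had the largest value toward wild type among genes well above background in both Cy5 RNAs, 10.78 against 8.00 (2.78, 6.88-fold), on 1 of its probes only. That probe, at 60603402 to 60603461, read 8.18 and 8.17 in Cy3. The other 3 probes well above background gave -0.03, 0.07 and 0.13, and the mean over the 4 was 0.74. The first 30 bases of the 1 differing probe and of the next one along the gene, at 60604951 to 60605387, are shown since these probes disagreed.
Cacul1 differing probe: tccatttgggttatattgaagaatctgagt
Cacul1 next probe: tggagatgagttggcttataacagtccatc

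Of the 937 genes well above background in Cy5 on 1 array only, 6 were at least 2-fold higher in wild type TAM and 21 in vehicle. The 5 with the largest bounds toward wild type were Mrgpra3 (9.90 and 6.53, at least 10.4-fold), Mypop (9.37 and 6.45, at least 7.60-fold), Galntl5 (8.56 and 6.60), Cdh19 (8.26 and 6.56) and Gt(ROSA)26Sor. In the first 4 of these the Cy3 channel of the same array was raised as well, with Cy3 differences of 1.62, 1.24, 0.76 and 0.75, and each value rests on 1 spot an array. A second probe of Mypop read 7.15 and 7.37, the opposite direction. Mrgpra3 and Mypop were the 2 genes past 2-fold in Cy3 on the first array, and their Cy5 differences were among the 19.

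**Figure D5:**
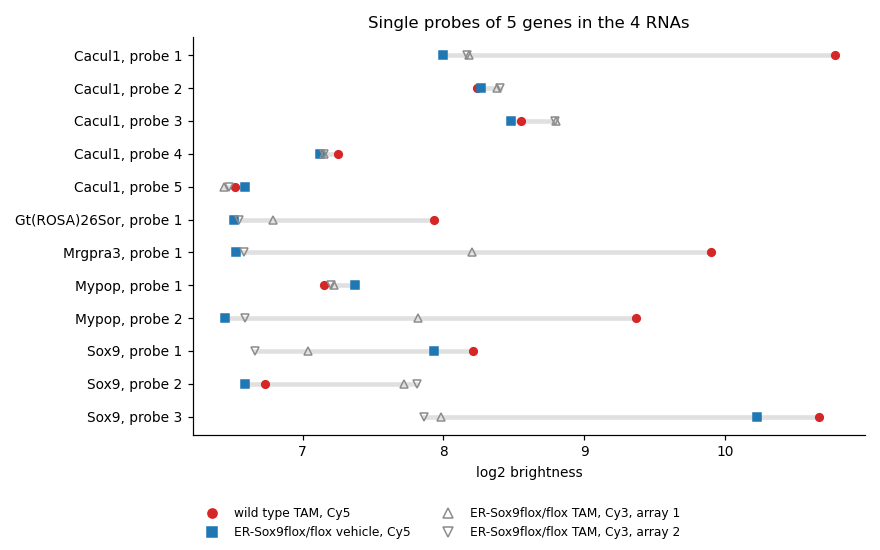
Log2 brightness (horizontal axis) of every probe of 5 genes in the 4 RNAs. Of the 5 Cacul1 probes, 1 stands apart in wild type TAM (10.78), the Mrgpra3 probe and 1 of 2 Mypop probes are raised in both RNAs of the first array, and the Gt(ROSA)26Sor probe is high in wild type TAM (7.93) with the 3 RNAs of floxed cells between 6.51 and 6.79.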

How the data were processed

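Gene expression was measured on 2 two-colour arrays (Agilent whole mouse) of 1 slide and 1 scan, with 4 RNAs and no dye swap. The authors deposited the scanner output of each array, in which Agilent Feature Extraction 10.5.1.1 gave, per the file headers, uncorrected spot means and local background medians of the intensity in both channels, and processed intensities after its own background subtraction and dye normalization. The authors also deposited a table whose values fit log2 ratios of Cy5 over Cy3 (slopes of 3.121 and 3.140 on the scanner's log10 ratios), for which the submitters' notes name limma and the steps are not given in the sources used here. Probe coordinates are those of the files (mm9).

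From the mean intensities, background was corrected with normexp (offset 50) in limma 3.58.1 (R 4.3.3), followed by loess within arrays and Aquantile between arrays, which gives the mean of both channels the same distribution on each array and leaves the ratios unchanged. Control spots (1639 of 45018) and outlier spots (126 and 130) were left out, and 0 spots were saturated. Spots of a probe were averaged. A gene was read from its brightest passing probe, and 33070 of 41174 probes were matched to RefSeq genes by accession, symbol or synonym. In Cy5, 53.9% of probes were well above background on the first array and 56.1% on the second. The number of arrays limits the precision. For a probe not well above background in 1 Cy5 RNA, the fold is a bound: the bright value minus the higher of the dim probe's own value and the lowest value among probes well above background on that array (5.70 and 6.37 on the log2 scale). For each gene given a bound here, the dim probe's own value was the higher, so the bound equals the observed fold. The bound makes no allowance for noise or for the scaling. The code was tested on simulated data. Python 3.11.15, pandas 2.3.3, numpy 2.4.6 and matplotlib 3.10.9 were used for the other steps.

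The comparison, the gene lists and the rule for named genes were chosen with earlier results of these data known. Named were Sox9, the 10 highest and 10 lowest genes well above background in both Cy5 RNAs, the 5 largest bounds each way, the 5 highest and 5 lowest after subtraction of the Cy3 difference among genes well above background in all 4 RNAs, and in each of 24 lists the first 2 genes and up to 4 members with the largest differences past 2-fold. Other genes given were chosen after their values were seen. Of 9 alternative settings, 1, the centring on the genes read, was added after the data were examined.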

Additional observations from a re-analysis of the deposited data

How the results depend on the processing

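No paired analysis was possible because each group held 1 RNA. With each channel centred on its median and no Aquantile, the median of all genes moved to -0.62 in Cy5 and -0.63 in Cy3. This gave 9 genes higher in wild type TAM and 1872 in vehicle, 428 genes higher on the second array in Cy3, and medians of -2.02 (fibroblast and matrix), -1.90 (smooth muscle), -2.30 (skeletal muscle) and -1.27 (interferon). Centring on the genes read, an alternative added after the data were examined, put the median of all genes at 0.11 in Cy5 and gave 101 genes higher in wild type TAM (28.6% of those past 2-fold, against 6.46% as reported) and 17 on the first array in Cy3, with medians of -1.58 (skeletal muscle) and -0.54 (interferon). On the scanner software's processed signals 194 genes were higher in wild type TAM and 993 in vehicle, with 78 each way in Cy3 and medians of -4.11 (skeletal muscle) and -1.14 (interferon). An offset of 10 gave 36 genes higher in wild type TAM, 5 in Cy3 on the first array and a skeletal muscle median of -2.29. No background subtraction gave 36 and 7, with -2.69 (skeletal muscle) and -0.86 (interferon). Quantile normalization of the 4 channels gave a smooth muscle median of -1.04. With genes well above background on both arrays, the Cy3 count on the first array was 0 and the skeletal muscle median -2.27, and without a filter the latter was -1.78. The mean over a gene's probes gave 1 and 0 genes in Cy3 and medians of -0.98 (fibroblast and matrix) and -0.97 (smooth muscle). The cause of these moves was not tested.

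All 36 values of these 4 lists were below 0, and 13 of the other 20 lists changed sign at least once. As reported, the medians of the 4 lists ran from -1.90 to -0.69, and 1 setting moved the median of all genes to -0.62. A list with a median near 0 could thus change sign through the setting alone, so this contrast does not measure robustness. Of 60 named genes past 2-fold, 53 to 60 stayed past it under each alternative that kept all of them. Mypop reversed, to -0.22, where its dim probe was left out. On the authors' log2 ratios, each of the 55 named genes past 2-fold after subtraction of the Cy3 difference stayed past 2-fold in the same direction.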

Other observations

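Families were counted by symbol after the values were seen, and some of their members are in the lists already described. Over all genes read, 2.01% were at least 2-fold higher in ER-Sox9flox/flox vehicle. Of 8 troponin genes read, 5 were at least 2-fold higher in ER-Sox9flox/flox vehicle, among them the slow-muscle forms Tnni1 (7.10 in wild type TAM and 9.43 in vehicle, -2.32) and Tnnc1 (7.33 and 9.48, -2.15). Of 36 collagen chains read, 8 were, and the median of the family was -0.17. Of 16 Adamts proteases read, 3 were, with the aggrecan-cleaving Adamts5 at -2.57 (8.93 and 11.50), and 15 were below 0. Of 6 Igf binding proteins read, 3 were, with Igfbp2 at -1.60 (9.58 and 11.18). Itga11, a collagen receptor of fibroblasts, was the 1 of 19 integrin subunits read that passed 2-fold (7.11 and 9.37, -2.26). Itga3, a subunit of a laminin-binding integrin of epithelium, was at 0.99.

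Of 15 complement genes read, 4 were at least 2-fold higher in vehicle and 14 were below 0. C2, a component of the classical pathway, read 9.83 in wild type TAM, 11.54 in vehicle, and 11.22 and 11.19 in Cy3 (-1.71, 3.27-fold). Of 10 Cxc chemokines read, 4 were higher in vehicle by at least 2-fold, Cxcl12, Cxcl14 (-1.49), Cxcl5 and Cxcl13 (-1.37), and Cxcl16 was at 0.99. Keratins differed little: 0 of 28 read reached 2-fold, with a median of -0.01, and Krt23 was at -0.97 (11.41 and 12.38). Of 1999 probes that matched no gene and were well above background, 4 were at least 2-fold higher in wild type TAM and 10 in vehicle.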
